A study of Mus musculus with 24 samples.

Results

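Skeletal muscle sarcomere genes were followed in interscapular brown fat of 24 mice, 1 sequencing library per mouse. The list held 40 gene symbols, and 31 of them were matched by Ensembl identifier to the deposited table of raw counts, which has 12615 genes. Of these 31 genes, 11 are typical of fast muscle fibres (of 13 listed), 6 of slow fibres (of 8 listed) and 14 are used by both (of 19 listed). The fast-fibre genes Tnnc2 and Mybpc2, the slow-fibre genes Myoz2 and Tnni1 and the shared genes Actn2, Mb, Mylk2, Cacna1s and Myot were not analysed here. All 31 matched genes passed the filter on low counts. In the GENCODE annotation of GRCm38, 0 of the 31 have an exon that overlaps another gene of the same strand, and 14 overlap a gene of the opposite strand, among them Atp2a1, Myh1, Myh2, Ckm, Myl2, Myl3, Myh7, Des, Ttn and Neb. The question was how fast-fibre, slow-fibre and shared genes were distributed over the single libraries and the 4 groups of mice.

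A skeletal muscle fibre contracts when thin filaments of actin, tropomyosin, troponin and nebulin slide along thick filaments of myosin. The repeating unit, the sarcomere, is bounded by Z discs, and titin spans from the Z disc to the middle of the unit. Calcium released from the sarcoplasmic reticulum starts contraction, and a calcium pump ends it. Fast and slow fibres use different genes for myosin, troponin and the pump. Interscapular brown fat lies against back muscle, and brown adipocytes and skeletal muscle share an embryonic precursor, and muscle transcripts are a known feature of brown fat samples.

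The groups were BATdKO and Cre- mice at 30°C for 4 days or at 8°C for 6 days, with 6 mice each. Mice of both genotypes carried floxed alleles of the corepressor genes for TBLR1 (Tbl1xr1) and TBL1 (Tbl1x) and were given tamoxifen 3 weeks before the temperature protocol. BATdKO mice also carried Ucp1CreERT2, a recombinase driven by the Ucp1 promoter, which limits deletion to cells that use that promoter. The labels describe females and an age at tamoxifen of 5 years, the study's methods give weeks, and its text gives a shorter time in the cold and, in a figure legend, males. Mice went from room temperature directly to 30°C or in steps to 8°C, and the names of the libraries form 1 block of numbers per temperature, so temperature and library block cannot be told apart. Nothing in the labels says which mice shared a litter or a dissection, and the p-values measure the spread between these mice.

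The total count ranged from 699703 in Cre- 30°C mouse m4, where the next lowest library had 2738613, to 11527643, with a median of 6644364. Both targeted genes had more counts under the BATdKO label. Tbl1xr1 averaged 39.8 CPM (counts scaled to the library size) under that label and 20.9 CPM under the Cre- label at 8°C (exact permutation test over 6 against 6 mice, two-sided, p = 0.00216), and 32.5 against 24.0 CPM at 30°C (exact permutation p = 0.117). Tbl1x averaged 53.8 against 40.7 CPM at 8°C (exact permutation p = 0.00433) and 53.4 against 41.0 CPM at 30°C (exact permutation p = 0.026). These values go against the labels, although a tag at the 3′ end may lie outside the deleted exons, so groups are named below by their label. Ucp1, the uncoupling protein of brown fat, had medians of 129.7 and 313.6 CPM at 30°C (Cre- and BATdKO) and 1516 and 1768 CPM at 8°C. Over 12 brown adipocyte genes the summed level ran from 749 to 6301 CPM per library, whereas 8 hepatocyte genes, all in the table, summed to between 29910 and 43570 CPM in every library. The liver genes thus exceeded the brown adipocyte genes in all 24 libraries, which is unexpected for the labelled tissue. The lists hold different genes, so their sums do not tell how much RNA came from either tissue. Ucp1 had a higher median at 8°C than at 30°C under both labels. The part of these liver transcripts in the results below was not tested.

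Promoters of 4 members are shown because members of every fibre class moved together across libraries. RefSeq holds a promoter for 24 of the 31 genes, in 28 windows of 250 bases before and 50 after the start of transcription (assembly GRCm38.p6). The genes are Acta1, skeletal muscle actin (chr8:123894726-123895025, minus strand), Ckm, muscle creatine kinase (chr7:19410844-19411143, plus strand), Mylpf, the fast regulatory myosin light chain (chr7:127211358-127211657, plus strand), and Tnnc1, the slow troponin C (chr14:31208062-31208361, plus strand). Capitals mark CAGCTG, a form of the E-box bound by myogenic factors, and in Acta1 also a CArG box, the site of serum response factor, and TATAAA, the TATA box form searched.
Acta1: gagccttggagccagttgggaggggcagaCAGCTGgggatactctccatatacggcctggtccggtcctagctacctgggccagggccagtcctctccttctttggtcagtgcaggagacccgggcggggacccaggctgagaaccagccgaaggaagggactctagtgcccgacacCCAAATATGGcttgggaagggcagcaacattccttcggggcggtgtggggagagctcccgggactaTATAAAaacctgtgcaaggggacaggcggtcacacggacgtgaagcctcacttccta
Ckm: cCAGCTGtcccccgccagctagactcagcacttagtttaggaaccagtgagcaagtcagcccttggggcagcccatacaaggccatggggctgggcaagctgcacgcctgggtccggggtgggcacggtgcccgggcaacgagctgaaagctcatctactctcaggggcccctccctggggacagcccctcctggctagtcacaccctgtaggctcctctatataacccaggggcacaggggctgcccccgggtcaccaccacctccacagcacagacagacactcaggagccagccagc
Mylpf: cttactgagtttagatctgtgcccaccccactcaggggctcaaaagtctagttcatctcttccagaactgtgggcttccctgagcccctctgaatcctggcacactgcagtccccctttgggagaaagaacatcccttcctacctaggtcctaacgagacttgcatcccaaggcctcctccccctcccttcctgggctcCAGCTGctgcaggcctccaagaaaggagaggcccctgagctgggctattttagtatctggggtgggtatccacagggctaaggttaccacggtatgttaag
Tnnc1: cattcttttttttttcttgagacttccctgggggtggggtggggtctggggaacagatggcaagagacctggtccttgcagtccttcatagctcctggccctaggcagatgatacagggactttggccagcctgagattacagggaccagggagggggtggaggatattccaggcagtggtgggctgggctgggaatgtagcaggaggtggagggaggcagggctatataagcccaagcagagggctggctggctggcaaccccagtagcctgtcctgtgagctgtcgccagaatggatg
The Tnnc1 window held none of the marked motifs. Searched on both strands, CAGCTG occurred in 14 of the 28 windows (50%), against 16.3% of all 32851 RefSeq promoter windows. The wider E-box CANNTG, which includes that form, occurred in 78.6% against 72.3%. TATAAA occurred in 25% against 13.6%, the CArG box in 17.9% against 1.63% and the MEF2 site in 17.9% against 3.19%. The CArG box was added to the search after the values had been seen. A match describes the letters of the window only.

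The muscle genes were concentrated in a few libraries, and the libraries of 1 group differed by more than the groups did. In Cre- mice at 30°C they held 1.90% of all counts in mouse m3 and 0.901% in m1. The other four held 0.0875% (m5), 0.0267% (m2), 0.00815% (m4) and 0.00765% (m6). Mice m1 and m3 of this group thus stood apart from the rest of the series. In BATdKO mice at 30°C the share was 0.0455, 0.175, 0.0108, 0.0573, 0.0871 and 0.0359% from m1 to m6. In Cre- mice at 8°C it was 0.193, 0.0154, 0.00673, 0.0389, 0.388 and 0.225%. In BATdKO mice at 8°C it was 0.00719, 0.00718, 0.0267, 0.0255, 0.0371 and 0.00616%. The highest share under the BATdKO label at 8°C was thus below 4 of the 6 Cre- libraries at that temperature, while the lowest values of all 4 groups lay close together.

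**Figure D1:**
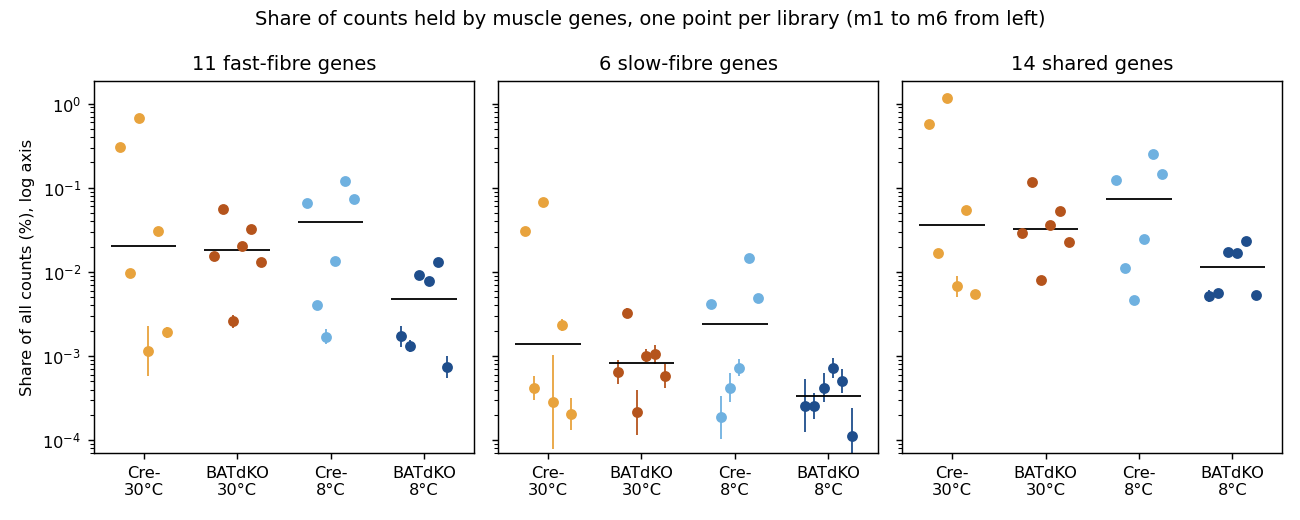
Share of all counts (%, log axis) held by the 11 fast-fibre, 6 slow-fibre and 14 shared genes in each library, with 95% Wilson intervals for counting error, and the group median as a line. Cre- 30°C mice m1 and m3 lie above every other library in all 3 panels, and BATdKO mice at 8°C have the lowest median in each.

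The 3 fibre classes followed each other. For fast-fibre genes the median share per group was 0.0201% in Cre- at 30°C, 0.0180% in BATdKO at 30°C, 0.0395% in Cre- at 8°C and 0.00477% in BATdKO at 8°C. The slow-fibre genes had medians of 0.00138, 0.000823, 0.00241 and 0.000338% in the same order. The shared genes had 0.0356, 0.0326, 0.0740 and 0.0113%. All 3 classes had their highest median in Cre- mice at 8°C and their lowest in BATdKO mice at 8°C. The mean gave another order, because of mice m1 and m3: over all members it was 0.489% ± 0.775 (SD, n = 6) in Cre- at 30°C, 0.0686% ± 0.0578 in BATdKO at 30°C, 0.145% ± 0.152 in Cre- at 8°C and 0.0183% ± 0.0132 in BATdKO at 8°C. In bulk tissue, fewer cells of a type and less RNA per cell cannot be told apart.

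Each of the 31 genes had its highest level in Cre- 30°C mouse m3. The second highest was Cre- 30°C mouse m1 for 28 genes and Cre- 8°C mouse m5 for 3, the fast myosins Myh1 and Myh2 and the fast calcium pump Atp2a1. Acta1 (ENSMUSG00000031972, chromosome 8 of GRCm38, 123891769 to 123894751), the actin of the thin filament, had 1062, 18.9, 2620, 0, 108 and 0.618 CPM in Cre- 30°C mice m1 to m6. In BATdKO mice at 30°C it had 36.3, 148, 5.77, 58.2, 68.6 and 13.8 CPM. In Cre- mice at 8°C the values were 160.5, 8.70, 0.767, 38.1, 354 and 197 CPM, and in BATdKO mice at 8°C they were 3.05, 1.67, 27.6, 28.3, 28.8 and 0.196 CPM. The groups overlapped, since every group held a library under 6 CPM. The Cre- 30°C library with 0 Acta1 counts is the shallowest of the series, where a count of 0 allows a level of up to 4.10 CPM (3 counts, counting error only).

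**Figure D2:**
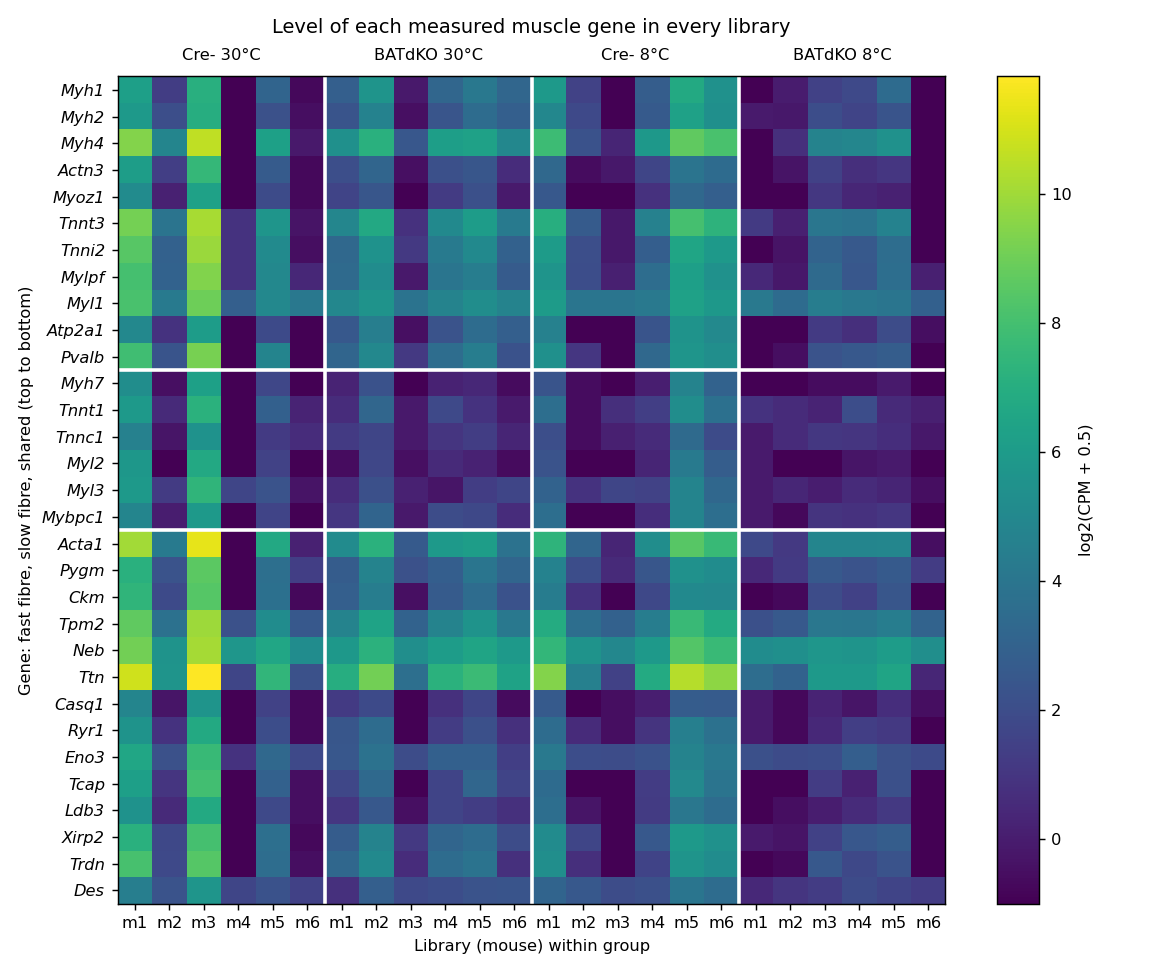
Level of each of the 31 genes, as log2(CPM + 0.5), in the 24 libraries (columns, by group and mouse), with fast-fibre, slow-fibre and shared genes from top to bottom. The columns of Cre- 30°C m1 and m3 are bright for every gene, and only Neb, Myl1 and a few others keep colour in the dark columns.

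Among thick filament genes, Myh4, the myosin heavy chain of the fastest fibres (chromosome 11, 67238029 to 67260446), ranged from 0 to 1528 CPM in Cre- at 30°C (median 52.0) and from 5.13 to 139.8 CPM under the BATdKO label (median 57.2). At 8°C it ranged from 0.767 to 406 CPM in Cre- (median 138.8), and BATdKO libraries had 0 to 44.2 CPM (median 13.8). Its slow counterpart Myh7 (chromosome 14, 54970684 to 54994626) had medians of 1.48, 0.688, 2.52 and 0.0810 CPM in that order and highest values of 76.9, 4.22, 26.3 and 0.462 CPM. At 3 counts or fewer in 13 of the 24 libraries, Myh7 was near the limit of detection in most mice. Mybpc1, a myosin-binding protein of slow fibres, had 59.1 CPM in Cre- 30°C m3 and 0 counts in 5 libraries. Myh1, Myh2 and Myh4 are neighbouring paralogs on chromosome 11, and the authors' counting may have split or dropped reads that they share.

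For 3 of 4 light chains the medians fell in the order Cre- at 8°C, Cre- at 30°C, BATdKO at 30°C and BATdKO at 8°C. Mylpf (chromosome 7, 127208890 to 127214298) had medians of 19.3, 12.7, 28.2 and 2.95 CPM for Cre- at 30°C, BATdKO at 30°C, Cre- at 8°C and BATdKO at 8°C, with highest values of 678, 37.0, 73.8 and 11.9 CPM and lowest values between 0.393 and 0.824 CPM. Myl2 (chromosome 5, 122100951 to 122113472), its slow and cardiac partner, had medians of 1.17, 0.446, 2.55 and 0.163 CPM, with 104.5 CPM as its highest value and 0 counts in 8 libraries. Myl3 (chromosome 9, 110741861 to 110769798), the slow essential light chain, had medians of 3.58, 1.54, 5.20 and 0.653 CPM. The fast essential light chain Myl1 (chromosome 1, 66924295 to 66945404) had 24.6, 28.3, 36.8 and 16.0 CPM and stood out by its lowest values, which were 6.83, 14.3, 15.1 and 7.04 CPM.

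In the thin filament, Tnnt3, the fast troponin T (chromosome 7, 142498836 to 142516009), had medians of 32.4, 31.2, 78.3 and 8.10 CPM in the same order of groups and reached 1126 CPM in Cre- 30°C m3. Tnnt1, the slow troponin T (chromosome 7, 4504570 to 4516382), had medians of 4.06, 1.20, 7.05 and 0.954 CPM and reached 147 CPM there. Both troponins were lowest by median under the BATdKO label at 8°C. Ckm, which rebuilds ATP beside the filaments (chromosome 7, 19404776 to 19422841), ranged from 0 to 348.5 CPM in Cre- at 30°C (median 7.90), from 0.214 to 21.4 CPM in BATdKO at 30°C (median 6.42), from 0 to 32.9 CPM in Cre- at 8°C (median 11.5), while BATdKO libraries at 8°C had 0 to 4.93 CPM (median 1.19). Tpm2, a tropomyosin, ran from 3.92 to 996 CPM over the series, Tnni2, the fast troponin I, from 0 to 952 CPM and Tnnc1 from 0 to 45.5 CPM. In the Z disc, Tcap, which caps titin, reached 241.5 CPM, Xirp2 260.4 CPM, Actn3 183.5 CPM, Ldb3 110.1 CPM and Myoz1 80.8 CPM, each from 0 CPM in the shallowest library. The genes of calcium handling did the same, with highest levels of 588.6 CPM for Pvalb, 348.1 CPM for Trdn (triadin), 108.7 CPM for Ryr1, the release channel, 67.2 CPM for Atp2a1 and 49.3 CPM for Casq1, which binds calcium in the store. Of the energy genes, Pygm ran from 0 to 381.8 CPM and Eno3 from 1.37 to 195.4 CPM. Titin (Ttn) ran from 0.782 to 3610 CPM over the series, the highest level of any member in the library with the most muscle transcripts. The kit is meant to make 1 tag per transcript, so levels are given without a correction for length. Whether very long transcripts such as Ttn received more tags than others was not tested.

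In the 6 libraries with the most muscle transcripts, which came from 3 of the 4 groups, fast-fibre genes held 89.2% or more of the class-specific counts. They held 90.9% of the counts on fast- and slow-fibre genes in Cre- 30°C m1 (95% Wilson interval 90.6 to 91.2) and 90.9% in m3 (90.6 to 91.1), from 37318 and 48684 counts. They held 89.2% in Cre- 8°C m5 (88.6 to 89.8), 93.8% in m6 (93.2 to 94.3), 94.1% in m1 (93.4 to 94.7) and 94.4% in BATdKO 30°C m2 (5599 counts). The group medians were 90.9% in Cre- at 30°C, 95.5% in BATdKO at 30°C, 93.9% in Cre- at 8°C and 89.3% in BATdKO at 8°C, and the ranges overlapped in every pair of groups. The intervals cover counting error only, since molecular identifiers are not given in the sources used here. Among libraries with 20 or more such counts the lowest values were 80.0% in Cre- 8°C m3 (71.8 to 86.3, 115 counts) and 83.7% in BATdKO 8°C m2 (77.6 to 88.4, 178 counts). In Cre- 30°C m4 the share of 80.0% rests on 10 counts.

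**Figure D3:**
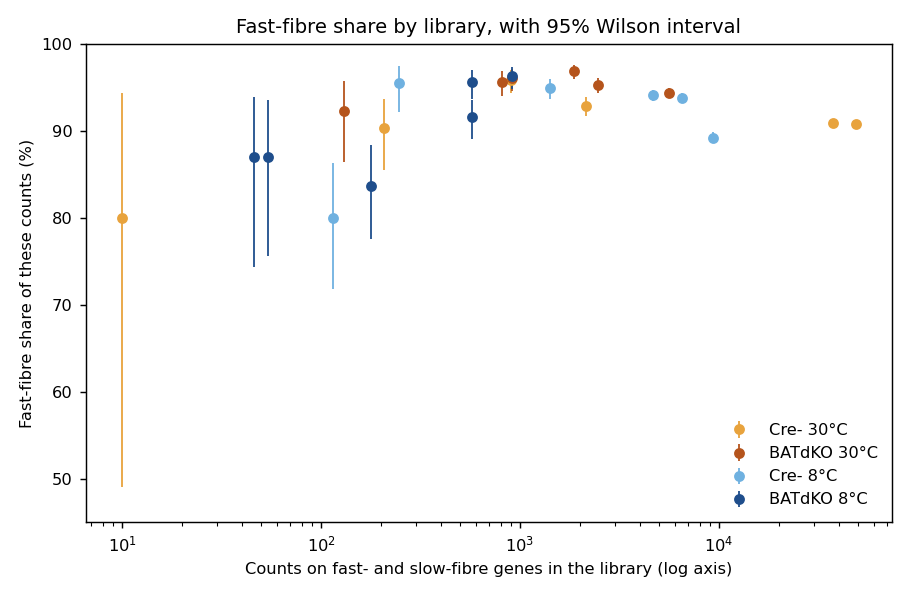
Percentage of fast- and slow-fibre counts that fell on the 11 fast-fibre genes, against the number of such counts in the library (log axis), with 95% Wilson intervals, on an axis that does not start at 0. The 6 libraries with the most such counts lie between 89.2 and 94.4%, and libraries with few counts reach down to 80.0% with wide intervals.

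In several libraries poor in muscle transcripts the fast share rested on Myl1. Without Myl1 it was 36.1% in Cre- 8°C m3, 52.4% in Cre- 30°C m6, 57.4% in BATdKO 8°C m2, 50% in BATdKO 8°C m1 and 40% in BATdKO 8°C m6, each from 68 counts or fewer. Other poor libraries kept a high share without it, with 84.1% in BATdKO 30°C m3 (63 counts) and 93.0% in Cre- 8°C m2 (157 counts). In the muscle-rich libraries it hardly moved, to 89.9% in Cre- 30°C m1, 90.1% in m3 and 88.5% in Cre- 8°C m5. The pairs of fast and slow genes, over libraries with at least 20 counts of both, had ratios from 4.00 to 13.0 for Mylpf to Myl2 (6 libraries), from 2.93 to 12.1 for Myl1 to Myl3 (8 libraries), from 4.05 to 12.4 for Tnnt3 to Tnnt1 (9 libraries) and from 15.5 to 49.3 for Myh4 to Myh7 (7 libraries). Among the libraries kept, Cre- 8°C m5 had the lowest ratio in 3 of these 4 pairs, and BATdKO 30°C m2 the highest in 3. The cut-off drops libraries with few counts of either gene, so the ends of the ranges depend on it. Below it, Tnnt3 to Tnnt1 was 49.5 in BATdKO 30°C m5 (396 and 8 counts) and 0.333 in Cre- 8°C m3 (2 and 6 counts).

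The members differed in how steady their proportion to Acta1 was. In the 15 libraries with at least 100 Acta1 counts, 10 of the 30 other members varied less than 3-fold against Acta1, 19 varied more, and Myl2 was at 0 in a library. In these libraries Mylpf had 17.8 to 41.2 counts per 100 counts of Acta1, Tnnt3 43.0 to 97.8, the fast parvalbumin Pvalb 14.5 to 30.9 and Pygm, muscle glycogen phosphorylase, 11.2 to 23.2. Acta1 itself ranged from 155 to 19387 counts over these libraries. These 4 of the 10 varied from 2.06-fold (Pygm) to 2.31-fold (Mylpf) against Acta1, and were chosen for this after their values had been seen. Neb, the nebulin of the thin filament (chromosome 2, 52136647 to 52378474), varied 6.01-fold, from 41.5 to 249.7 counts per 100 of Acta1, Des, the intermediate filament desmin (chromosome 1, 75360329 to 75368579), 11.8-fold, Myh7 12.9-fold and Myl3 17.0-fold, and Myh7 and Myl3 had few counts in many of these libraries.

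A few members had a lower proportion to Acta1 in Cre- mice at 30°C than at 8°C, which was seen in the values and not tested. Over the 4 Cre- 30°C libraries with at least 100 Acta1 counts, Myh1 had 5.11 to 10.5 counts per 100 of Acta1. It had 15.0 to 33.05 under the BATdKO label at 30°C (4 libraries), 16.5 to 36.1 in Cre- at 8°C (4 libraries) and 8.39 to 36.4 under the BATdKO label at 8°C (3 libraries). Atp2a1 had 2.56 to 7.18, 7.59 to 16.3, 11.9 to 16.3 and 4.02 to 11.8 in the same order. Ttn, which all fibres use, had 137.8 to 256.4, 253.9 to 365.8, 301.4 to 427.8 and 214.2 to 313.9. Mybpc1, a slow-fibre gene, had 2.25 to 2.76, 4.20 to 5.84, 2.84 to 7.503 and 4.598 to 5.35. For these 4 of the 30 members, and for no other, the Cre- libraries at 30°C lay below all Cre- libraries at 8°C, whereas Mylpf had medians of 27.2 and 26.4 in these groups and overlapped.

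Neb and Myl1 were the only genes of the list with more than 3 counts in all 24 libraries. Tpm2 and Eno3 had 3 counts or fewer only in Cre- 30°C m4, the shallowest library. In Cre- 30°C m6 and Cre- 8°C m3 Acta1 had 0.618 and 0.767 CPM. There Tpm2 had 5.25 and 7.48 CPM, Eno3 3.09 and 3.45 CPM and Des 2.27 and 3.45 CPM, so a remaining level was not particular to Neb and Myl1. Neb was never under 29.5 CPM, and its highest and lowest level differed 36.8-fold, against 75.2-fold for Myl1. Cre- 30°C m4 had 39 counts of Neb and 0 of Acta1, and Cre- 30°C m6 had 359 of Neb and 6 of Acta1. In the annotation, Gm13522 overlaps an exon of Neb on the other strand, and whether the authors counted by strand is not given in the sources used here. No other exon of the annotation overlaps Myl1. What part other cells, or reads of other transcripts, had in these counts was not tested.

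**Figure D4:**
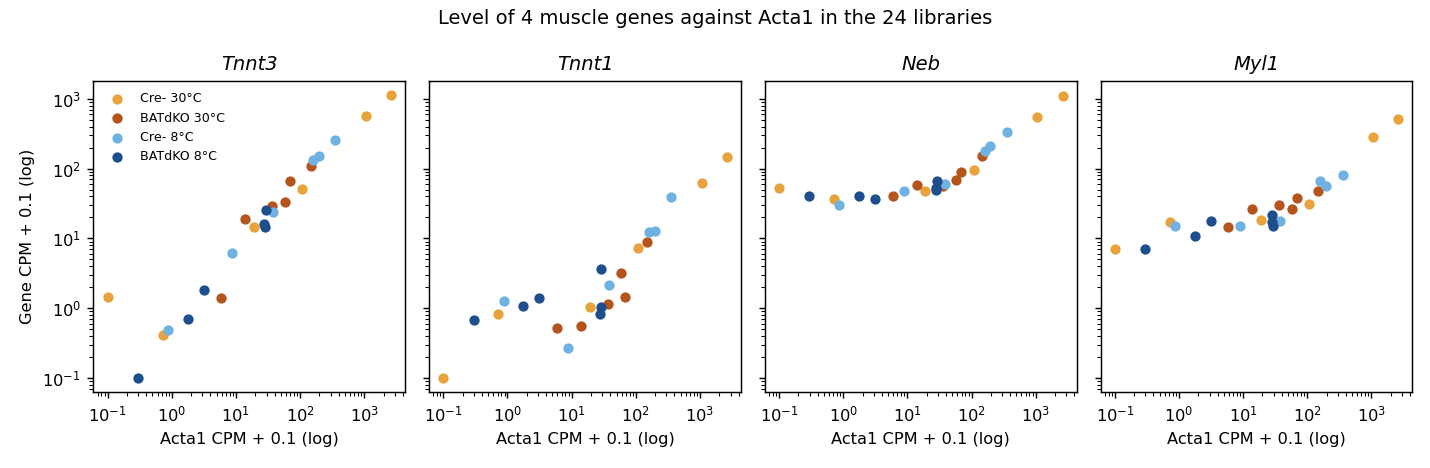
Level of Tnnt3, Tnnt1, Neb and Myl1 (CPM + 0.1) against Acta1 (CPM + 0.1) in the 24 libraries, both axes log. Tnnt3 follows Acta1 over most of its range, whereas Neb stays at 29.5 CPM or more and Myl1 at 6.83 CPM or more where Acta1 is near 0.

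The libraries labelled BATdKO were compared with those labelled Cre- at 8°C to ask how the genotypes differed in the cold. All 31 genes had a lower mean, a lower median and a lower maximum in the libraries labelled BATdKO, but none passed the adjusted threshold of 0.1 in edgeR's quasi-likelihood test, where 1.12% of the 12485 tested genes were called lower. At an unadjusted p under 0.05, 26 of the 31 were lower, against 5.47% of all tested genes. DESeq2 called 2 members lower (Myl3 and Myh7), against 1.34% of all genes it adjusted, and limma voom called 1 (Des), against 2.63%. The median log2 fold change of the members was -3.10, with a range from -5.39 to -1.52 and standard errors from 0.66 to 1.98, against a median of 0 over all tested genes.

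**Figure D5:**
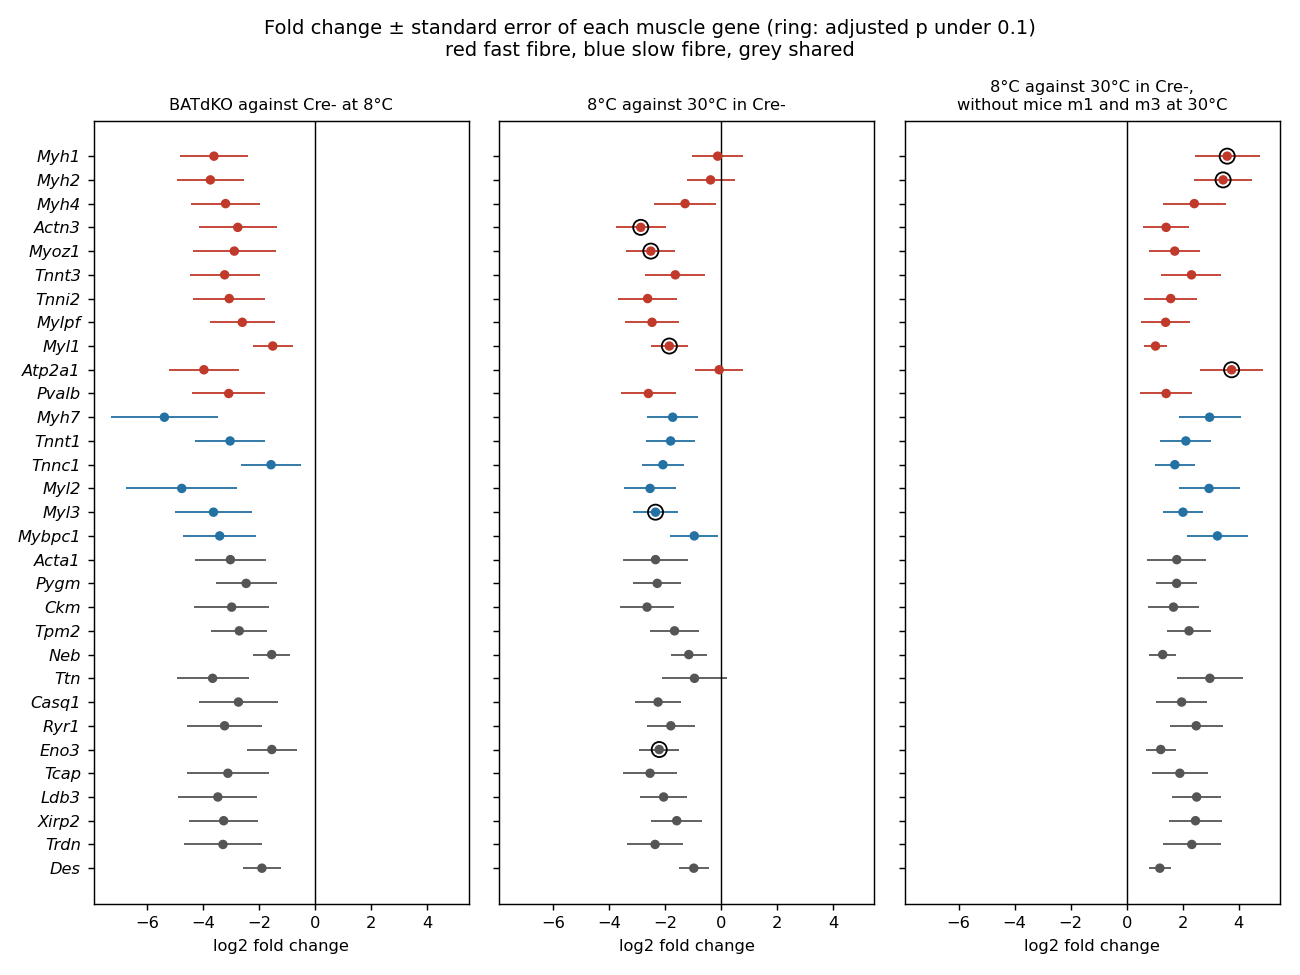
Log2 fold change ± standard error of each of the 31 genes for BATdKO against Cre- at 8°C, for 8°C against 30°C in Cre- mice, and for the latter without Cre- 30°C mice m1 and m3; a ring marks an adjusted p under 0.1. All genes lie left of 0 in the first and second panels and right of 0 in the third, where the mice left out had the highest levels of these genes.

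The smallest p-values at 8°C belonged to genes of fast fibres. Atp2a1, the calcium pump of fast fibres, had -3.98 ± 1.26 as its fitted log2 fold change (± standard error, here and below), with an adjusted p = 0.156 in edgeR's test. Myh2 had -3.75 ± 1.19 (adjusted p = 0.159) and Myh1 -3.62 ± 1.21 (adjusted p = 0.189). Acta1 averaged 126.5 ± 138 CPM (SD, n = 6) under the Cre- label and 14.9 ± 14.6 under the BATdKO label, and its adjusted p was 0.390. For all 4 genes the SD within the Cre- group exceeded its mean. By role, 10 of 10 thick filament genes, 6 of 7 thin filament genes, 4 of 6 genes of the Z disc and desmin, 4 of 5 of calcium handling and 2 of 3 of energy supply were lower at an unadjusted p under 0.05.

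Myl3 and Des were the only members whose groups did not overlap at 8°C, where 0.873% of all tested genes had every BATdKO library below every Cre- library. Myl3 had from 1.34 to 27.5 CPM in Cre- and from 0.196 to 0.974 CPM in BATdKO, from 1 to 8 counts in each BATdKO library. Des had from 3.45 to 15.5 CPM in Cre- and from 0.871 to 3.25 CPM in BATdKO. Myh7 and Myl2 had at most 3 counts in every BATdKO library at 8°C, so that their levels in Cre-, on average 6.53 and 5.00 CPM, were at least 10.7-fold and 8.17-fold higher than the level of 3 counts per library. Mouse m5 carried both means, and without it they were 2.58 and 2.31 CPM, at least 4.22-fold and 3.77-fold higher. Desmin is also a protein of smooth muscle, and the smooth muscle list, of which 8 of 10 genes were in the table, summed to between 191.0 and 222.3 CPM in Cre- and between 174.5 and 193.7 CPM in BATdKO at 8°C.

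The calls at 8°C depended on the libraries at 30°C, which enter the estimate of the spread. When the fit was limited to the mice at 8°C, 20 members passed the filter and all 20 were called lower, with a median log2 fold change of -3.10, against 2.57% of all genes tested in that fit. With Cre- 30°C m1 and m3 left out, an alternative added after the values had been seen, 21 of 31 members were called lower, against 1.93% of all tested genes, and all 31 had an unadjusted p under 0.05, against 6.34%. These 2 libraries were chosen for their levels of the same genes, so fits without them are given as a description. With Cre- 8°C m5, the next in muscle transcripts, also left out, 5 members were called lower (Des, Myl3, Ldb3, Atp2a1 and Myh2), against 1.33% of all tested genes, and the median log2 fold change was -2.60. With only Cre- 30°C m1 and m3 left out, the log2 fold changes of Atp2a1, Myh2 and Myh1 were -3.99, -3.76 and -3.63, with standard errors of 0.98, 0.90 and 0.97. Against the fit of all mice, the fold changes of these genes hardly moved, and their standard errors were smaller. 

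Cold was compared in Cre- mice, and here the sign changed with the method and with the mice. Over all mice, the fitted log2 fold change at 8°C against 30°C was negative for 31 of 31 members, with a median of -2.05 (all tested genes -0.02). Actn3, the actinin of fast Z discs, fell (-2.87 ± 0.89, adjusted p = 0.0517 in edgeR's test), as did Eno3, muscle enolase (-2.21 ± 0.72, adjusted p = 0.0691), Myoz1, a Z disc protein of fast fibres (-2.51 ± 0.87, adjusted p = 0.0905), Myl3 (-2.34 ± 0.82, adjusted p = 0.0925) and Myl1 (-1.85 ± 0.66, adjusted p = 0.0998). These 5 of 31 stood against 3.59% of all tested genes called lower, and 18 of 31 had an unadjusted p under 0.05 against 8.95%. DESeq2, limma voom, robust dispersion estimates and a fit with only the Cre- groups called 0 members each, and in limma voom the median over all mice was positive, at 0.48. The share of all tested genes called in these alternative fits is not given here, so their counts show only that the calls were unstable.

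The medians went the other way. For 31 of 31 members the group median was higher at 8°C than at 30°C in Cre- mice, although the mean was lower for 29. With Cre- 30°C m1 and m3 left out, which removes the highest values of these genes from the warm group only, the median log2 fold change of the members was 2.01, no member was called lower, and 3 were called higher, against 3.9% of all tested genes. These were Atp2a1 (3.75 ± 1.12), Myh2 (3.44 ± 1.02) and Myh1 (3.59 ± 1.16). With the muscle-rich Cre- 8°C m5 also left out, the median was 1.36 and 0 members were called. Leaving out m3 alone gave a median of -0.89 with 0 members called, and leaving out m1 alone -1.78 with 1 called. For these fits the share of all tested genes called is not given here. No direction of the difference held over these fits.

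For genotype at 30°C the fitted values all pointed one way, and the medians did not. All 31 members had a negative log2 fold change for BATdKO against Cre- (median -3.08, range -4.85 to -1.14, all tested genes -0.01). None passed the adjusted threshold in edgeR's test, as for 0.0% of all tested genes in that direction, and 28 of 31 had an unadjusted p under 0.05, against 5.14% of all. The smallest p-values were those of Myl3 (-4.54 ± 0.99, adjusted p = 0.149), Myl2 (-4.85 ± 1.16, adjusted p = 0.149) and Eno3 (-3.03 ± 0.76, adjusted p = 0.149). DESeq2 called 3 members lower, Myl3, Eno3 and Tnnt1, against 0.377% of all genes it adjusted, and limma voom 0, with a median of 0.044. Leaving out 1 mouse gave from 0 to 24 members called, the latter without Cre- 30°C m6, and 11 without m2. The share of all tested genes called in those fits is not given here, so these counts show only that the calls were unstable. The median CPM was lower under the BATdKO label for 18 members and higher for 13. Without Cre- 30°C m1 and m3 the median log2 fold change was 0.90, and 0 members were called.

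Neither group of the comparison of cold in BATdKO mice held those 2 libraries, although they enter the estimate of the spread. The medians and the fitted values of all 31 members were lower at 8°C, with a median log2 fold change of -2.03 (all tested genes -0.003). edgeR's test called 0 members, against 3.31% of all tested genes called lower, and 1 member had an unadjusted p under 0.05, against 8.66%. That gene was Atp2a1 (-2.91 ± 1.33, adjusted p = 0.251), followed by Myh1 (-2.42 ± 1.25, adjusted p = 0.326) and Ttn (-2.26 ± 1.23, adjusted p = 0.355). With only the BATdKO groups in the fit, 11 of the 20 members that passed the filter were called lower, against 3.84% of all genes tested in that fit. With Cre- 30°C m1 and m3 and Cre- 8°C m5 left out, 2 were (Myl1 and Atp2a1), against 3.97%. DESeq2 and limma voom called 0, and the share of all tested genes that they called is not given here.

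The test of the interaction asked whether the genotype difference at 8°C differed from that at 30°C. It called 0 members in edgeR's test, against 0.0961% of all tested genes in either direction, and 0 had an unadjusted p under 0.05, against 8.05%. DESeq2 and limma voom also called 0, and the share of all tested genes that they called is not given here. The smallest p-values were those of Atp2a1 (difference of log2 fold changes -2.85 ± 1.62, adjusted p = 0.667), Myh1 (-2.30 ± 1.57, adjusted p = 0.739) and Eno3 (1.48 ± 1.19, adjusted p = 0.794). The standard errors ran from 0.91 to 6.82, so that differences of several log2 units could not be told from 0 for most members. Over all mice the members had a median of 0.29, with 20 of 31 above 0 (all tested genes 0.01), and in limma voom it was -3.02. Without Cre- 30°C m1 and m3 it turned to -3.89 with all 31 below 0, 31 had an unadjusted p under 0.05, against 8.92% of all tested genes, and 1 was called, Atp2a1 (-6.67 ± 1.52), against 0.2%. Without Cre- 8°C m5 as well the median was -3.45 and 0 members were called.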

How the data were processed

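RNA of brown fat from 24 mice was sequenced with Lexogen's QuantSeq 3′ FWD kit, which gives 1 tag near the 3′ end of a transcript. For the deposited table the authors used only the forward reads, with BBDuk for trimming, STAR for alignment to GRCm38 and Rsubread for counting per gene. They deposited raw counts per gene, without normalization, as 1 table. The annotation release, strand setting and rule for low genes are not given in the sources used here, and neither are the mice removed as outliers, so all 24 were used.

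Columns were matched to samples by library name and to groups by the labelled genotype and temperature. Mice are numbered m1 to m6 in accession order, which pairs none. The members and gene lists were chosen with earlier results of these data known. Genes outside the list were limited to both targeted genes, Ucp1 and those of the comparison lists that passed the adjusted threshold for genotype at 8°C, and others are marked. Values are given for Acta1, Ckm and the fast and slow pairs (4 of 9 had both genes in the table), and tests for members that passed and the 3 smallest p per contrast. Further members, such as Neb, Ttn, Des and Pygm, were named after their values were seen.

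Counts were fitted in R 4.3.3 with edgeR 4.0.16 (TMM, filterByExpr on 4 groups, quasi-likelihood test, 12485 genes tested, Benjamini-Hochberg adjustment over all, threshold 0.1 as in the study). Standard errors were derived from F and the fold change. CPM uses library sizes normalized by TMM. Of 12615 rows, 12608 had a symbol. Alternatives were DESeq2 1.42.0, limma 3.58.1 (voom with quality weights), RLE, no filter, robust dispersion, only the groups compared, a threshold of 0.05 and each mouse left out, with the muscle-rich libraries left out together added after the values were seen. Scripts were tested on simulated data.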

Additional observations from a re-analysis of the deposited data

Results flagged for a closer look

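In 12 of 56 groups of 6 libraries tested, 1 library lay far from the other 5 by Dixon's criterion. For normally distributed values, chance meets it in about 1 of 20 groups. Levels and shares were tested without a log and were skewed within groups, so that rate does not hold here. The tests share libraries and are not independent. Cre- 8°C mouse m5 accounted for 5 of the 12, all for slow-fibre genes. Its slow-fibre share of counts was 0.0146%, where the other five lay between 0.000186 and 0.00486%. Its Myl2 level was 18.5 CPM (the others at most 6.45), Myl3 27.5 CPM (at most 9.11), Tnnt1 38.8 CPM (at most 12.8) and Myh7 26.3 CPM (at most 7.71). BATdKO 30°C mouse m2 accounted for 4, again for slow-fibre genes. Its slow-fibre share was 0.00329% (the others at most 0.00105%), and it had 2.85 CPM of Myl2 (at most 0.934), 8.74 CPM of Tnnt1 (at most 3.06) and 4.22 CPM of Myh7 (at most 0.847). The fast-fibre genes tested (Mylpf, Myl1, Tnnt3 and Myh4) did not meet the criterion in these mice.

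Cre- 30°C mouse m3 stood apart for Myl3, with 170.0 CPM against at most 61.5 CPM in the others. The criterion looks for 1 outlying library, so 2 high libraries in a group can hide each other. For Myl2, Cre- 30°C m1 and m3 had 54.5 and 104.5 CPM, the others at most 2.35 CPM, and neither was flagged. BATdKO 8°C mouse m4 had 3.57 CPM of Tnnt1, where the others had at most 1.31 CPM. Cre- 30°C mouse m4, the shallowest library, had a fast-fibre share of 80.0%, where the others lay between 90.3 and 95.9%, and this share rests on 10 counts.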

How the results depend on the processing

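No paired analysis was possible because the mouse numbers follow accession order and mark no shared litter or batch. Of the values recomputed under the alternatives named in the methods, 380 were classed as unchanged, 41 as moved and 1 as reversed. These classes did not count every change of sign, so they do not show that direction and size were kept. The median log2 fold change of members for genotype at 30°C, -3.08 over all mice, turned positive with voom. That for the interaction, 0.29 over all mice, turned negative with voom, and with 1 mouse left out it lay between -0.96 and 0.76. For genotype at 8°C, where edgeR called 0 members, DESeq2 called 2, voom 1, the fit of only the compared groups 20 of 20, and the fit without Cre- 30°C m1 and m3 (added after seeing the data) 21. Leaving out 1 mouse gave 0 to 3, with 3 without Cre- 30°C m3, 2 without Cre- 30°C m6 and 1 without Cre- 8°C m2. For cold in Cre- mice, the 5 calls became 0 with DESeq2, the compared groups only, robust dispersion, voom and a threshold of 0.05, and 3, all higher, without m1 and m3. Leaving out 1 mouse gave 0 to 16, with 0 without Cre- 30°C m3 or Cre- 8°C m3 or m4, and 9 to 16 without Cre- 30°C m2, m4, m5 or m6 or Cre- 8°C m5. The share of all tested genes called is not given for fits with 1 mouse left out or alternatives that called 0 members, here or elsewhere. Their counts show only how stable the calls were. The median log2 fold change of members for cold in Cre- mice reversed to 0.48 with voom and to 2.01 without m1 and m3, and lay between -2.58 and -0.89 with 1 mouse left out.

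For genotype at 30°C, DESeq2 called 3 members, and leaving out 1 mouse gave 0 to 24, with 24 without Cre- 30°C m6, 11 without m2 and 1 without BATdKO 30°C m6. Its median was 0.044 with voom and 0.90 without m1 and m3. For cold in BATdKO mice the compared groups alone gave 11. For the interaction, 1 member was called without m1 and m3, and the median was -3.02 with voom and -3.89 without m1 and m3, and between -0.96 and 0.76 with 1 mouse left out. Without the myosin heavy chains the median fast-fibre share in BATdKO at 30°C was 92.9%. The cause of the other changes was not tested. With Cre- 8°C m5 left out as well as m1 and m3 (added after seeing the data), 5 members were called for genotype at 8°C, 0 for cold in Cre- mice and 2 for cold in BATdKO mice, and the medians were 1.36 for cold in Cre- mice, 0.89 for genotype at 30°C and -3.45 for the interaction. In the shallowest library a count of 0 allows up to 4.10 CPM, above the group medians of Myh7.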

Other observations

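Other skeletal muscle genes followed the sarcomere genes. Of a list of 32, 13 were in the table, and their summed level was 917.6 CPM in Cre- 30°C m3, 415.1 in Cre- 30°C m1 and 181.3 in Cre- 8°C m5, against 20.1 to 49.7 CPM in the other 4 Cre- libraries at 30°C and 22.9 to 37.0 CPM in BATdKO at 8°C. For genotype at 8°C, 12 of the 13 had a lower fitted level under the BATdKO label, and 1 passed the adjusted threshold. This was Myom3, an M-band protein (-1.61 ± 0.36 in log2 units, where ± marks the standard error; edgeR's test gave an adjusted p = 0.0204), with 3.70 to 11.8 CPM in Cre- and 1.23 to 3.05 CPM in BATdKO, without overlap. Myom3 too was highest in the muscle-rich libraries Cre- 8°C m5, Cre- 30°C m3 and Cre- 30°C m1 (11.8, 11.1 and 8.74 CPM). Its range was narrower than that of Acta1, with 1.23 CPM as its lowest level. It had 7.10 CPM (37 counts) in Cre- 8°C m3, where Acta1 had 0.767 CPM. Myh8, the perinatal myosin heavy chain and the only gene of 10 embryonic and cardiac isoforms in the table, had medians of 1.75, 2.5, 7.83 and 0.342 CPM in Cre- at 30°C, BATdKO at 30°C, Cre- at 8°C and BATdKO at 8°C. It was named after its values were seen.

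Of 14 myogenic regulators, Mef2a, Mef2c and Mef2d were in the table, and the others, Myod1 and Myog among them, were not analysed here. Mef2c had 113.4 CPM in Cre- 30°C m3, 63.4 in m1 and 33.1 in Cre- 8°C m5, and 11.1 to 27.3 CPM in the other libraries. Its fitted value for cold in Cre- mice, with m1 and m3 in the warm group, was -1.2 ± 0.37 on the log2 scale (adjusted p = 0.0523 in edgeR's test), and it was named after its values were seen. Mef2d, named in the same way, rose with cold (0.92 ± 0.19, adjusted p = 0.00259 in edgeR's test in Cre- mice).

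Smooth muscle genes summed to 166.8 to 222.3 CPM, endothelial genes to 127.0 to 217.0 CPM and macrophage genes to 136.5 to 222.2 CPM. The brown adipocyte list was lowest, at 749 CPM, in Cre- 30°C m3 and reached 2340 CPM in m1. The 3 white adipocyte genes in the table summed to 73.6 CPM in Cre- 30°C m1, 34.5 CPM in m3 and 31.5 CPM in Cre- 8°C m6, against 2.74 to 27.5 CPM in the other libraries. In those 3 libraries Retn alone had 60.9, 27.8 and 26.7 CPM. Cre- 8°C m5, also rich in muscle transcripts, had a sum of only 11.8 CPM. Acta2, smooth muscle actin, was also highest in Cre- 30°C m1 and m3 (15.9 CPM in each). For genotype at 8°C, S100b (-1.77 ± 0.30 on the log2 scale, adjusted p = 0.00109) and Pmp22 (-0.62 ± 0.14, adjusted p = 0.0196), used as markers of Schwann cells, and Adrb3, the receptor through which noradrenaline activates brown fat (-0.98 ± 0.26, adjusted p = 0.0592), were lower under the BATdKO label in edgeR's test. Over all tested genes, 1.12% were called lower. Adrb3 was the only gene called among 12 brown adipocyte genes, of which 6 were lower and 6 higher (median 0.03). Of the 3 Schwann cell and nerve genes tested, Mbp was lower but was not called. S100b had 26.7 to 53.0 CPM in Cre- and 8.63 to 15.7 CPM in BATdKO at 8°C.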
